A study of Mus musculus with 7 samples.

Results

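LSK CD150+CD48+ cells of pMT-10 mice were compared with common myeloid progenitors (CMPs) of BL/6 mice across all genes of a targeted transcriptome panel. The members of each group were taken from the sample labels, not from measured values, and the comparison took 4 of the 7 libraries of the series, 2 of each group. As background, the pMT-10 mouse carries an Il10 transgene under a metallothionein promoter that zinc switches on, and BL/6 is the C57BL/6 strain that served as the control. All mice of both strains drank water with zinc for 15 days, and all cells were sorted from bone marrow by flow cytometry. LSK stands for lineage-negative, SCA-1-positive and c-KIT-positive cells, here those that also carried CD150 and CD48. The 2 libraries of pMT-10 CMPs were used to place each gene nearer to 1 side or the other, and the single library of pMT-10 haematopoietic stem cells (HSC) is quoted beside some genes. Both also entered the fit, where they add to the estimate of the spread. The gates of the CMP sort and the cells in which the transgene is active are not stated in the labels.

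The 2 groups differ in strain, in cell population and in sequencing chip at the same time. Sex-linked genes also separated them, as given below. Strain, population, chip and sex thus cannot be told apart in the genes reported. The LSK CD150+CD48+ and pMT-10 CMP libraries shared 1 sequencing chip, and BL/6 CMPs and HSC shared another. Total counts were 8807636 and 13854314 for LSK CD150+CD48+ cells and 10952847 and 12652309 for BL/6 CMPs. Between 10104 and 10620 genes had 10 or more counts in a library. Whether libraries of 1 group stem from separate mice is not stated, so the p-values speak only to the spread between these samples, which can be technical. In the LSK CD150+CD48+ pair the spread was not only technical, since Xist had 2431 counts in replicate 1 and 2 in replicate 2. Fewer cells of a type and less RNA per cell cannot be told apart in such bulk samples.

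As background, interferon-γ acts on blood progenitors through its receptor and the JAK kinases, whose signal reaches GAS elements near genes such as Irf1. The factor IRF1 then binds IRF elements of guanylate-binding protein and antigen presentation genes, and the transactivator CIITA turns on MHC class II genes through proteins that sit on the X and Y boxes of their promoters. Multipotent LSK cells stand above CMPs in the haematopoietic tree, and CMPs give rise to granulocytes, monocytes, megakaryocytes and red cells, whose genes they begin to express. The series title links IL-10 to interferon-γ-dependent emergency myelopoiesis, which is the question to which these libraries belong.

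The edgeR quasi-likelihood test called 1899 of 11429 tested genes (16.6%) at an adjusted p under 0.05. Higher levels in LSK CD150+CD48+ cells were called for 927 genes (8.11%) and lower levels for 972 (8.5%). A difference of at least 2-fold was called for 1124 genes (9.83%), with 559 higher (4.89%) and 565 lower (4.94%). The libraries of the groups did not overlap in any of the 1899 called genes, but this was also true of 71.7% of all tested genes (35.4% higher and 36.2% lower). Levels are given in CPM, counts scaled to a common library size with TMM factors. The median log2 fold change of all tested genes was 0.0079. The 12 largest increases among genes with a proper symbol that averaged at least 20 CPM in the higher group were Cd74, H2-Eb1, H2-Aa, H2-Ab1, Ciita, Ly6a, Gbp4, Serpina3f, Fbn1 and 3 Y-linked genes. Among the 12 largest decreases on the same terms were Dntt, Ccl9, Ctsg, Sqrdl, Mfhas1, Atp7b, Tceal3, Tmem56, Aldh1a7, Ube2e3 and Camsap2.

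The number of called genes rested on single libraries. It was 140 without LSK CD150+CD48+ replicate 1, 391 without its replicate 2, 262 without BL/6 CMP replicate 1 and 316 without BL/6 CMP replicate 2. It was 4562 without pMT-10 CMP replicate 1, 4575 without pMT-10 CMP replicate 2 and 4588 without both. The pMT-10 CMP pair had the widest spread of the 3 pairs, with an SD of the log2 difference across genes of 0.823 against 0.474 in the LSK CD150+CD48+ pair and 0.385 in the BL/6 CMP pair. Over all 18 alternatives, 130 of the 1899 calls were made every time in the same direction, 86 of them higher and 44 lower. Calls made under all 18 alternatives are described below as held. Every other call of a listed gene was lost when at least 1 library of the compared groups was left out.

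**Figure D1:**
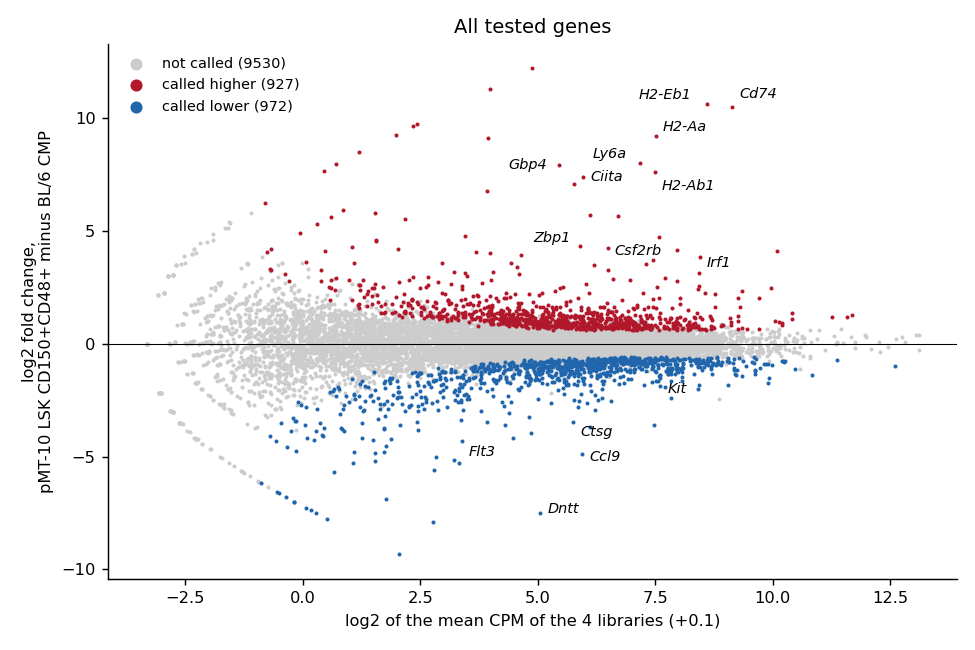
Log2 fold change of pMT-10 LSK CD150+CD48+ cells over BL/6 CMPs (vertical axis) against the mean level of the 4 libraries in CPM on a log2 scale (horizontal axis) for the 11429 tested genes. Red points are the 927 genes called higher and blue points the 972 called lower, and Cd74 and H2-Eb1 lie above a log2 fold change of 10.

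The sort genes were looked at first as a check of the labels. Ly6a, which encodes SCA-1, was at 325 and 249 CPM in the LSK CD150+CD48+ libraries, 0.0923 and 2.02 in BL/6 CMPs and 19.4 and 28 in pMT-10 CMPs. Its log2 fold change was 8.01 ± 0.63 (± SE here and below, adjusted p = 0.00017), and the call held. Slamf1, which encodes CD150, was at 53.3 and 59.8 CPM against 25.5 and 19.3 (1.34 ± 0.22, adjusted p = 0.00549), and Cd48 at 63.6 and 40.5 against 20.4 and 17.9 CPM (1.44 ± 0.32, adjusted p = 0.0188). All 3 genes were higher in the LSK CD150+CD48+ libraries, in the direction of the sort, but the calls of Slamf1 and Cd48 did not hold.

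Of 9 tested sort markers 4 were called higher (44.4%) and 3 lower (33.3%), beside 8.11% and 8.5% of all tested genes. The 3 lower were Kit, Cd34 and Fcgr3, and none of these calls held. The CMP gate is not stated, so the labels set no direction for these 3 genes. Kit, which encodes c-KIT, was lower in the LSK CD150+CD48+ libraries, at 81.2 and 118 CPM against 303 and 274 in BL/6 CMPs (-1.53 ± 0.25, adjusted p = 0.00521; adjusted p = 0.101 without LSK CD150+CD48+ replicate 1). The pMT-10 CMPs were at 95.3 and 140.1 CPM, nearer to the LSK CD150+CD48+ cells. Cd34, a sialomucin of progenitors, was at 21.4 and 29.8 against 129 and 118 CPM (-2.26 ± 0.29, adjusted p = 0.00175; adjusted p = 0.0725 without LSK CD150+CD48+ replicate 1). Procr and Fgd5, which mark stem cells, had at most 0.719 CPM in the LSK CD150+CD48+ libraries and 38.5 and 26.2 CPM in the HSC library. Car1, a carbonic anhydrase of early erythroid cells, was among the more abundant genes in both groups, at 7059 and 8868 CPM in LSK CD150+CD48+ cells and 8878 and 10478 in BL/6 CMPs (adjusted p = 0.363), against 425 CPM in the HSC library. Ly6a, Slamf1 and Cd48 thus went with the label, while Kit was low and Car1 high for such a sort. The labels set no level for the stem cell genes Procr and Fgd5 in CD48-positive cells. In BL/6 CMPs Car1 was also high, and the granule gene Mpo was low there, as given below. LSK CD150+CD48+ and CMP are therefore used below only as the names of the sorted gates.

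Il10 had counts of 0 and 2 in the LSK CD150+CD48+ libraries and of 0 and 1 in BL/6 CMPs. None exceeded the floor of 3 counts, so a difference was not detectable at this depth. Mt1, a zinc-induced metallothionein, was at 433 and 531 against 648 and 729 CPM (-0.51 ± 0.18, adjusted p = 0.0809). It passed without at least 1 pMT-10 CMP library (adjusted p from 0.00943 to 0.0111).

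Among the largest increases were those of MHC class II genes, which present peptides to CD4 T cells and several of which were close to 0 in BL/6 CMPs. H2-Eb1 and Cd74 passed the filter on low counts only through pMT-10 libraries, so the share called higher is in part set by the filter. Of 14 tested members of the list, 10 were called higher and 1 lower, beside 8.11% and 8.5% of all tested genes, with a median log2 fold change of 3.08. H2-Eb1 (chromosome 17, 34305867 to 34316674), the beta chain of the I-E molecule, was at 952 and 594 CPM in LSK CD150+CD48+ cells and 0.461 and 0.485 in BL/6 CMPs. The groups lay far apart, with a log2 fold change of 10.64 ± 0.42 (adjusted p = 6.08e-06), and the pMT-10 CMPs lay between them at 206 and 288 CPM. Cd74, the invariant chain that fills the peptide groove during assembly, was at 1360.3 and 888 against 0.461 and 1.05 CPM (10.49 ± 0.45, adjusted p = 6.08e-06).

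H2-Aa and H2-Ab1, the chains of the I-A molecule, rose by 9.22 ± 0.58 and 7.62 ± 0.52 on the log2 scale (adjusted p = 4.38e-05 and 6.48e-05). Ciita, the transactivator of the class II genes, was at 151 and 96.2 CPM against 0.0923 and 1.29 (7.39 ± 0.56, adjusted p = 0.000163). H2-DMa and H2-DMb1, which exchange peptides, started from a higher level of 19.5 and 27.5 and 12.4 and 14.5 CPM in BL/6 CMPs and rose by 2.86 ± 0.23 and 2.48 ± 0.26. These 7 genes held their calls. Rfxap, a subunit of the factor that binds the X box, was the member called lower (-0.90 ± 0.21, adjusted p = 0.0223), and H2-Ob, a partner of the exchange inhibitor, and the other Rfx genes did not pass the test. H2-Eb2 had 2 counts in all in BL/6 CMPs and 0.818 and 1.08 CPM in LSK CD150+CD48+ cells.

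All tested genes of the interferon-γ list were higher in LSK CD150+CD48+ cells. A gene could pass the filter on low counts through any group, so members near 0 in BL/6 CMPs, such as Gbp4, entered through pMT-10 libraries. The share called higher is therefore in part set by the filter and is not a test of the list. Of 33 listed genes 24 were in the tables and 18 were tested, and these 18 were called higher, beside 8.11% of all tested genes, with a median log2 fold change of 3.89. Gbp11, Ifi47, Ido1, Nos2, Ubd and Fcgr1 had too few counts to be tested. The count was 11 without LSK CD150+CD48+ replicate 1, and 16 without the filter, where Gbp2 and Igtp were not called. Irf1, the transcription factor at the head of the response (chromosome 11, 53770014 to 53778374), was at 661 and 584 CPM against 63.2 and 76.1 in BL/6 CMPs (3.16 ± 0.21, adjusted p = 6.01e-05). Both libraries of LSK CD150+CD48+ cells were above both pMT-10 CMP libraries (419.8 and 331 CPM), which in turn were above BL/6 CMPs. Gbp4, a guanylate-binding GTPase of cell-autonomous defence, went from 0.554 and 0.162 to 108 and 64.4 CPM (7.91 ± 0.63, adjusted p = 0.00017), and Gbp3 from 23.5 and 24.9 to 354 and 292 (3.74 ± 0.21, adjusted p = 1.89e-05).

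Serpina3g and Serpina3f, serine protease inhibitors of 1 gene cluster, rose by 4.14 ± 0.22 and 7.08 ± 0.40 (adjusted p = 1.6e-05 and 1.89e-05). Serpina3g was the most abundant member, at 2197 and 1923 CPM against 121 and 114. Irgm1, an immunity-related GTPase, had a smaller change, 1.63 ± 0.17, from 83.2 and 86.6 to 282 and 244 CPM (adjusted p = 0.00071). Cxcl10, a chemokine, was at 30.6 and 28.2 CPM against 2.03 and 1.53 (4.04 ± 0.44, adjusted p = 0.00077). Gbp2 and Igtp rose by 4.74 ± 0.61 and 4.16 ± 0.58, but their calls did not hold, and the 2 pMT-10 CMP libraries differed from each other in both, at 168 and 36.6 and 237 and 53.2 CPM. The members that held were Batf2, Cxcl10, Cxcl9, Gbp3, Gbp4, Gbp5, Gbp7, Irf1, Irgm1, Serpina3f and Serpina3g.

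The sequences just upstream of some of these genes are shown because their genes moved together. They are the 250 bases before the RefSeq start of the gene (GRCm38.p6, most upstream start of the symbol, 5′ to 3′ on the strand of the gene). Capitals mark matches to 3 motifs on either strand: the Y box core GATTGG, the GAS pattern TTCNNNGAA and the IRF element GAAANNGAA, where N is any base. The genes were chosen as examples after the matches were seen.
H2-Eb1 (chr17:34305617-34305866, + strand): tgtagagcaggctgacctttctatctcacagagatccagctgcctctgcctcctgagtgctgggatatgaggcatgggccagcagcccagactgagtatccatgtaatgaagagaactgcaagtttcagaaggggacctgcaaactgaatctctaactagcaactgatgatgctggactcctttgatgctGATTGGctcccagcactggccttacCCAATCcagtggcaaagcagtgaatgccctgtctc
H2-Aa (chr17:34287824-34288073, - strand): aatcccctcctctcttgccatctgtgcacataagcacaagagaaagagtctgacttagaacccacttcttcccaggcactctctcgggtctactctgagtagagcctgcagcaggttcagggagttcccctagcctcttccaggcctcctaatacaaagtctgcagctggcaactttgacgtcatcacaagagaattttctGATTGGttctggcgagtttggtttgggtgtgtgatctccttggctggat
Irf1 (chr11:53769764-53770013, + strand): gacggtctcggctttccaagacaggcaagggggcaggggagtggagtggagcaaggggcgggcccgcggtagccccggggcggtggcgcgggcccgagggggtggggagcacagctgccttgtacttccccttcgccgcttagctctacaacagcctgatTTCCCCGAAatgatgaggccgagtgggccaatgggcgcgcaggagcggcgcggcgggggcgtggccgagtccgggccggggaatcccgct
Gbp2 (chr3:142620413-142620662, + strand): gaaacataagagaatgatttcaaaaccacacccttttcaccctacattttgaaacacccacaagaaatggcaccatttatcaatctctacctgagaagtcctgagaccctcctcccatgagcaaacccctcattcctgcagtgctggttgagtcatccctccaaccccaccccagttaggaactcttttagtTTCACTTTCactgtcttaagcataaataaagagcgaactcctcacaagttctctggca
Gbp5 (chr3:142496684-142496933, + strand): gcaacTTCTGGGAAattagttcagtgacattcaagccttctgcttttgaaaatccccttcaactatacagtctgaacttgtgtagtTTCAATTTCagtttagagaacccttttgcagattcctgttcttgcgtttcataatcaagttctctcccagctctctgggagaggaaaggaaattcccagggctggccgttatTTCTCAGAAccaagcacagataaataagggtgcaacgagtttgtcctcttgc
Serpina3f (chr12:104214294-104214543, + strand): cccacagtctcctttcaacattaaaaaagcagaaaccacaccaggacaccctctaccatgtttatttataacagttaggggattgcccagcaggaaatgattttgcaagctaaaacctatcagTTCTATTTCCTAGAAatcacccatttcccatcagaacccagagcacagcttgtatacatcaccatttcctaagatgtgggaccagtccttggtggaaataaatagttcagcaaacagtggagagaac

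The Y box match of H2-Aa lay 49 to 44 bases before the start, and the first of the pair in H2-Eb1 60 to 55 bases before it. The GAS match of Irf1 lay 90 to 82 bases and the IRF element match of Gbp2 58 to 50 bases before the start. Gbp5 held GAS matches at 245 to 237 and 52 to 44 bases and an IRF element match at 164 to 156 bases before the start. In Serpina3f a GAS and an IRF element match overlapped, at 121 to 113 and 127 to 119 bases before the start. Of the 10 class II genes called higher, 7 had a window in the table and 6 of these held a Y box match (H2-Aa, H2-DMb1, H2-DMb2, H2-Eb1, H2-Eb2 and H2-Oa), beside 15.1% of 27025 genes. Of the 18 interferon-γ genes called higher, 15 had a window, of which 7 held a GAS match (46.7%, beside 7.14% of all genes) and 10 an IRF element match (66.7%, beside 7.16%). For the class I genes called higher, 15 of 19 had a window, with a Y box match in 9, a GAS match in 2 and an IRF element match in 2. The 7 class II windows held a GAS match in 1 and an IRF element match in none, and the 15 interferon-γ windows a Y box match in 3. Of the 18 type I genes called higher 14 had a window, with an IRF element match in 5, a GAS match in 2 and a Y box match in 1. Such a match is a description of the letters and not a measured site, and no match says only that these letters are not in the window.

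MHC class I and peptide loading genes were higher in LSK CD150+CD48+ cells from a level that was already substantial in BL/6 CMPs. Of 22 tested members 19 were called higher (86.4%) and none lower, beside 8.11% and 8.5% of all tested genes, with a median log2 fold change of 1.80. The count was 11 without LSK CD150+CD48+ replicate 1, 11 without its replicate 2, 10 without BL/6 CMP replicate 1 and 11 without BL/6 CMP replicate 2. H2-K1, a classical class I chain, was at 4554 and 4845 CPM against 1852 and 1967 (1.30 ± 0.17, adjusted p = 0.00192; call lost without BL/6 CMP replicate 1), and B2m, the shared light chain, at 4266 and 4268 against 1850.4 and 1867 (1.20 ± 0.21, adjusted p = 0.00651). Psmb9 and Psmb10, subunits of the immunoproteasome, rose by 2.81 ± 0.26 and 2.53 ± 0.25, and Tap1, a chain of the peptide transporter, from 138 and 172 to 770.3 and 655 CPM (2.20 ± 0.19, adjusted p = 0.000299).

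Tapbp, which bridges the transporter and class I chains, rose by 2.03 ± 0.18, and Nlrc5, the transactivator of class I genes, by 1.99 ± 0.24 (adjusted p = 0.00146). Among the non-classical chains H2-Q4 and H2-Q6 rose by 2.58 ± 0.19 and 2.35 ± 0.19, while H2-T22 rose by 3.56 ± 0.55 with a call that did not hold. The H2-Q, H2-T, H2-K and H2-D genes are near copies of each other, and how the counting split reads between them is not given in the sources used here, so their single values are uncertain. Tap1, Tapbp, Tapbpl, Psmb9, Psmb10, Nlrc5, H2-M3, H2-Q4, H2-Q6 and H2-Q7 held their calls.

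Type I interferon genes were higher in part. Of 39 tested members 18 were called higher (46.2%) and 3 lower (7.69%), with a median log2 fold change of 0.77. Over all tested genes 8.11% were called higher and 8.5% lower, so the share called lower was near that of all genes. The count of higher members was 6 without LSK CD150+CD48+ replicate 1, 11 without its replicate 2, 10 without BL/6 CMP replicate 1, 8 without BL/6 CMP replicate 2, and 10 when a fold of 1.5 had to be exceeded. Zbp1, a sensor of Z-form nucleic acids, was at 121 and 106 CPM against 5.81 and 5.25 (4.35 ± 0.22, adjusted p = 1.23e-05). Slfn2, a Schlafen protein of quiescence and defence, rose by 3.15 ± 0.29, Isg20, an exonuclease, by 2.25 ± 0.22, and Stat2, a transcription factor of type I signalling, by 1.84 ± 0.20. These and Oas3 (1.82 ± 0.25) held. The antiviral genes Rsad2, Oasl1 and Eif2ak2 were called lower, with log2 fold changes of -1.77 ± 0.34, -0.95 ± 0.28 and -0.99 ± 0.25, and none of these calls was made without any single library of the compared groups.

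**Figure D2:**
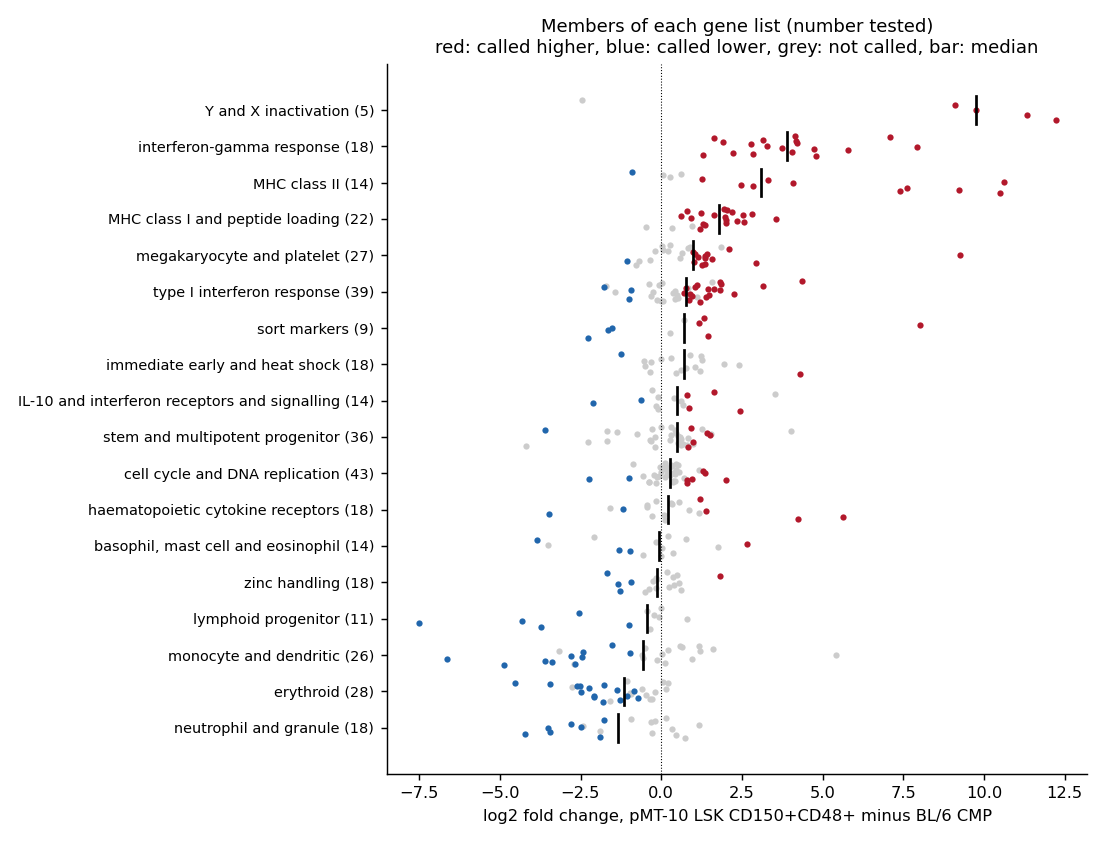
Log2 fold change of each tested member (points) of the 18 gene lists, with the number tested in brackets and the median as a bar. Red marks members called higher and blue members called lower in LSK CD150+CD48+ cells, and the interferon-γ list has all 18 members in red while the erythroid list has 15 of 28 in blue.

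Receptors and signalling genes of these cytokines changed in part. Csf2rb2 and Csf2rb, neighbouring genes for the beta chains of the IL-3 and GM-CSF receptors (chromosome 15, 78282507 to 78305721 and chromosome 15, 78325752 to 78353847), were among the clearest differences. Csf2rb2 was at 234 and 176 CPM against 3.69 and 4.44 (5.65 ± 0.25, adjusted p = 6.08e-06), and Csf2rb at 194 and 146 against 8.49 and 9.29 (4.25 ± 0.24, adjusted p = 1.89e-05). Both held, and pMT-10 CMPs were at 120.2 and 125 and 87.7 and 102 CPM. The 2 genes are near copies of each other, so how reads were divided between them is uncertain. Il1r1, the receptor of IL-1, went the other way, from 8.49 and 10.8 CPM in BL/6 CMPs to 1.05 and 0.719 (-3.47 ± 0.41, adjusted p = 0.00129), and held. Of the 18 tested cytokine receptors 4 were called higher and 2 lower, beside 8.11% and 8.5% of all tested genes (median log2 fold change 0.22). The count of 4 was 2 without LSK CD150+CD48+ replicate 1 or either BL/6 CMP replicate and 7 without either pMT-10 CMP replicate, and the count of 2 was 1 without any single library of the compared groups.

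Of 14 tested IL-10 and interferon signalling genes 4 were called higher and 2 lower, beside 8.11% and 8.5% of all tested genes (median 0.51). The count of 4 was 1 without LSK CD150+CD48+ replicate 1 or BL/6 CMP replicate 1, 2 without either of the other replicates of these groups and 7 without either pMT-10 CMP replicate, and neither decrease was called without any single library of the compared groups. Bcl3, an IκB protein, rose by 2.44 ± 0.29 and held. Stat3, the main STAT of the IL-10 receptor, was at 795 and 515 CPM against 199 and 226 (1.63 ± 0.25, adjusted p = 0.00441), but passed neither without LSK CD150+CD48+ replicate 1 (adjusted p = 0.0787) nor without BL/6 CMP replicate 1 (0.0591). Il10ra, the ligand-binding chain of the IL-10 receptor, was lower, at 2.69 and 2.88 CPM against 11.4 and 12.9 (-2.12 ± 0.42, adjusted p = 0.0118), and failed without any 1 of the 4 libraries compared (adjusted p from 0.0645 to 0.149). Il10rb, the other chain of the IL-10 receptor, and Ifngr1 and Ifngr2, the chains of the interferon-γ receptor, did not pass the test (log2 fold changes 0.61 ± 0.41, -0.18 ± 0.30 and 0.66 ± 0.35). Without at least 1 pMT-10 CMP library Il10rb passed (adjusted p from 0.00161 to 0.00207), as did Ifngr2 (adjusted p from 0.0169 to 0.0204).

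**Figure D3:**
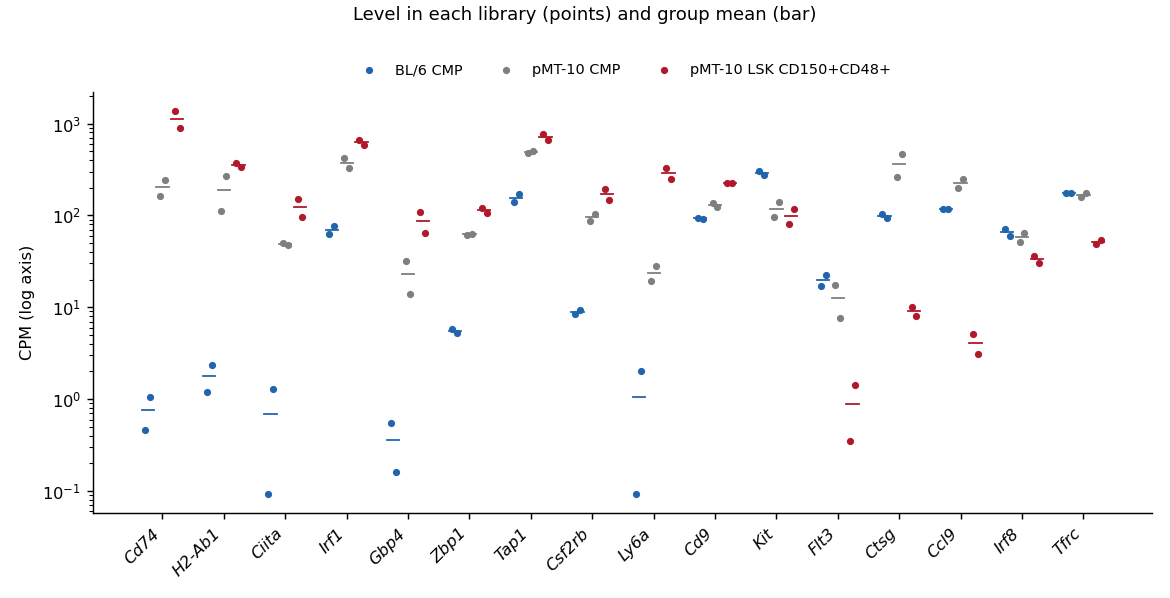
Level of 16 genes in each library (points) and the mean of each group (bars), in CPM on a log axis, for BL/6 CMPs (blue), pMT-10 CMPs (grey) and pMT-10 LSK CD150+CD48+ cells (red). Cd74, H2-Ab1, Ciita and Gbp4 are under 3 CPM in BL/6 CMPs, and Flt3, Ctsg and Ccl9 are lowest in LSK CD150+CD48+ cells.

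Part of the genes of the red cell, myeloid and lymphoid fates were lower in LSK CD150+CD48+ cells. No tested member of the erythroid, neutrophil, monocyte or lymphoid lists was called higher, beside 8.11% of all tested genes. Members near 0 in LSK CD150+CD48+ cells, such as Ctss and Dntt, passed the filter on low counts only through other libraries. The shares called lower in these lists are therefore in part set by the filter and are not a test of the lists. In the erythroid list 15 of 28 tested members were called lower (53.6%, beside 8.5% of all tested genes, median log2 fold change -1.16). The count was 4 without LSK CD150+CD48+ replicate 1, 7 without BL/6 CMP replicate 1, 7 without BL/6 CMP replicate 2, and 9 when a fold of 1.5 had to be exceeded. Tfrc, the transferrin receptor, was at 49.4 and 54.3 CPM against 176 and 176 (-1.76 ± 0.18, adjusted p = 0.000596), and Add2, a protein of the red cell skeleton, at 55.5 and 78.9 against 214 and 259.5 (-1.82 ± 0.22, adjusted p = 0.00134). These genes and Tmem56 held. Klf1, a master factor of red cells, did not pass, at 42.5 and 47.7 CPM against 34.5 and 46.6 (0.15 ± 0.25). Gata1, a factor of red cells and megakaryocytes, was at 210.4 and 316 against 420.5 and 427 CPM (-0.69 ± 0.25, adjusted p = 0.0873), and passed in 5 of the alternatives (adjusted p from 0.00411 to 0.00998), 4 of them without at least 1 pMT-10 CMP library and 1 without the filter on low counts.

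Among neutrophil and granule genes 7 of 18 tested members were called lower (38.9%, beside 8.5% of all tested genes, median -1.35). Fewer were called when either LSK CD150+CD48+ library was left out, and 8 more genes had too few counts to be tested. Ctsg, the granule protease cathepsin G (chromosome 14, 56099881 to 56102574), was at 10 and 8.13 CPM against 104 and 92.9 in BL/6 CMPs (-3.45 ± 0.30, adjusted p = 0.000263), and Hk3, a hexokinase of granulocytes, at 3.86 and 1.94 against 17.3 and 14.3 (-2.49 ± 0.32, adjusted p = 0.00192). Both held. The pMT-10 CMPs were not between the groups but beyond BL/6 CMPs, at 265 and 462 CPM for Ctsg and 100.4 and 93.4 for Hk3. The factors Cebpa and Gfi1, which set the granulocyte fate, were lower, with log2 fold changes of -1.91 ± 0.30 and -3.49 ± 0.49, as was Csf3r, the G-CSF receptor, with -4.23 ± 0.54. Mpo, the main azurophil enzyme, was low in all groups, at 3.15 and 1.15 CPM against 12.1 and 16.8 (-2.81 ± 0.48, adjusted p = 0.00641). Elane, another azurophil protease, did not pass (0.33 ± 0.40).

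Of 26 tested monocyte and dendritic genes 10 were called lower (38.5%, beside 8.5% of all tested genes, median -0.57). The count was 2 without LSK CD150+CD48+ replicate 1, 4 without its replicate 2, 5 without BL/6 CMP replicate 1 and 6 without BL/6 CMP replicate 2. Ccl9, a chemokine of myeloid cells (chromosome 11, 83572919 to 83578636), was at 5.14 and 3.09 CPM against 118 and 118 (-4.87 ± 0.28, adjusted p = 2.12e-05), with pMT-10 CMPs at 199 and 247. Clec12a, an inhibitory lectin, fell by 3.38 ± 0.41 on the log2 scale (adjusted p = 0.00134), and both held. Irf8, which directs monocyte and dendritic fates, was at 36.2 and 30.5 CPM against 70.4 and 60.4 (-0.97 ± 0.21, adjusted p = 0.017), and Csf1r, the M-CSF receptor, was at 0.117 and 0.144 CPM against 2.03 and 1.45. Ctss, a cathepsin that trims the invariant chain, was at 0 in both libraries of LSK CD150+CD48+ cells and at least 4.28-fold lower than in BL/6 CMPs, against a floor of 3 counts per library.

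Lymphoid priming genes were called lower in 5 of 11 tested members (45.5%, beside 8.5% of all tested genes, median -0.43). Fewer were called when any single library of the compared groups was left out, and 3 when a fold of 1.5 had to be exceeded. Dntt, the terminal transferase of lymphoid progenitors (chromosome 19, 41029275 to 41059525), was at 0 and 0.575 CPM against 52 and 79.1 (-7.51 ± 0.69, adjusted p = 0.000337). Flt3, the receptor of FLT3 ligand, was at 0.351 and 1.44 against 17.3 and 22.2 CPM (-4.32 ± 0.58, adjusted p = 0.00243; adjusted p = 0.0681 without LSK CD150+CD48+ replicate 1), and Satb1, a chromatin organiser, fell by 2.56 ± 0.28. Dntt and Satb1 held. Among 14 tested basophil and mast cell genes 3 were called lower and 1 higher, beside 8.5% and 8.11% of all tested genes (median -0.08). The count of 3 was at most 1 without any single library of the compared groups, or when a fold of 1.5 had to be exceeded, and 2 with RLE or total-count scaling. The gene called higher was Itgb7, an integrin chain, at 115 and 109.5 CPM against 16.4 and 19.1 (2.66 ± 0.21, adjusted p = 0.000167), and it held.

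Megakaryocyte and platelet genes were the lineage list that went up. Of 27 tested members 13 were called higher (48.1%) and 1 lower (3.7%), beside 8.11% and 8.5% of all tested genes, with a median log2 fold change of 0.99. Without Mmrn1, whose lack of counts in BL/6 CMPs is described below, 12 of 26 were called higher, with a median of 0.94. The count of 13 was 2 without LSK CD150+CD48+ replicate 1, 7 without its replicate 2, 2 without BL/6 CMP replicate 1, 5 without BL/6 CMP replicate 2 and 7 when a fold of 1.5 had to be exceeded. Cd9, a tetraspanin of platelets, was at 226 and 223 CPM against 94.5 and 90.8 (1.27 ± 0.17, adjusted p = 0.0022) and held. Itga2b, the platelet integrin CD41, was at 527 and 435 against 185 and 192 (1.35 ± 0.22, adjusted p = 0.00523). Gfi1b, a repressor of the erythroid and megakaryocyte lines, was lower (-1.06 ± 0.17), and Vwf, von Willebrand factor, was at 34.5 and 38 against 37.2 and 34 CPM (0.03 ± 0.19, adjusted p = 0.938).

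Of 36 tested genes of stem and multipotent cells 5 were called higher (13.9%) and 1 lower (2.78%), with a median log2 fold change of 0.49. Over all tested genes the shares were 8.11% and 8.5%. The count of 5 fell to at most 1 without either LSK CD150+CD48+ or either BL/6 CMP replicate and was 14 without either pMT-10 CMP replicate. Gata2, a factor of stem cells, megakaryocytes and mast cells, was at 1447 and 1511 CPM against 763 and 732 in BL/6 CMPs (0.98 ± 0.25, adjusted p = 0.0307), with pMT-10 CMPs at 316 and 176 and the HSC library at 257. Angpt1, a ligand of the receptor TIE2, was at 129.6 and 151 against 79.2 and 77.1 CPM (0.84 ± 0.19, adjusted p = 0.0197). Hlf, at 18.2 and 16.8 CPM against 18.8 and 24.2, and Mecom, at 4.09 and 4.03 against 2.31 and 3.07, which are factors of long-term stem cells, did not pass (adjusted p = 0.386 and 0.237).

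Of 43 tested cell cycle genes 6 were called higher (14%) and 2 lower (4.65%), beside 8.11% and 8.5% of all tested genes (median 0.26). The count of 6 fell to at most 2 without either LSK CD150+CD48+ or either BL/6 CMP replicate and was 15 without either pMT-10 CMP replicate. Mki67, a marker of cycling cells, was at 108 and 173 CPM against 107 and 122 (0.30 ± 0.25, adjusted p = 0.439). Cyclins moved apart: Ccnd1, a D-type cyclin of the early G1 phase, was higher by 2.01 ± 0.27 and Ccne1, the E-type cyclin of S phase entry, lower, at -2.25 ± 0.31 (adjusted p = 0.00247 and 0.00256). Of 18 zinc handling genes 1 was called higher and 4 lower, beside 8.11% and 8.5% of all tested genes (median -0.14), among them Mtf1, the metal response factor (-1.29 ± 0.24). The count of 4 was at most 1 without any single library of the compared groups, and 1 when a fold of 1.5 had to be exceeded. Of 18 immediate early and heat shock genes, which respond to the handling of cells, Atf3 was called higher and Zfp36 lower (5.56% each, beside 8.11% and 8.5% of all tested genes, median 0.69). The count of higher members was at most 1 without any single library of the compared groups or with a minimum count of 50, 3 with DESeq2, 5 without either pMT-10 CMP replicate, 6 with only the 4 compared libraries and 7 without the filter.

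Outside the lists, Fbn1, the microfibril protein fibrillin 1, went from 0.185 and 0.323 CPM to 35.1 and 24.4 (6.78 ± 0.56, adjusted p = 0.000212). Among the decreases, Mfhas1, a leucine-rich repeat protein, was at 2.45 and 4.32 CPM against 46.1 and 62.2 (-3.96 ± 0.32). Aldh1a7, an aldehyde dehydrogenase, and Sqrdl, a sulfide oxidase, fell by 3.23 ± 0.29 and 4.20 ± 0.39 on the log2 scale. All 4 held. Atp7b, a copper pump, Tceal3 and Ube2e3, a ubiquitin-conjugating enzyme, were also lower (-3.71 ± 0.49, -3.59 ± 0.52 and -3.08 ± 0.79), with calls that did not hold.

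The pMT-10 CMPs place each called gene, since they share strain and chip with the LSK CD150+CD48+ cells and the population label with BL/6 CMPs. Each pMT-10 CMP library was set nearer to the group with the closer mean log2 CPM, and a gene was placed where both libraries fell on the same side. Of the 927 genes called higher, 541 (58.4%) were placed with LSK CD150+CD48+ cells, 228 (24.6%) with BL/6 CMPs and 158 (17%) were not placed. Of the 972 called lower, 542 (55.8%) were placed with LSK CD150+CD48+ cells, 256 (26.3%) with BL/6 CMPs and 174 (17.9%) were not placed. More genes thus lay on the side that shares strain and chip, in both directions. The LSK CD150+CD48+ pair and the pMT-10 CMP pair are in the same deposited table, so strain and chip cannot be told apart here either. Both pairs also held Y-linked RNA, as given below, so sex cannot be told apart from strain and chip in the placement.

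The lists differed in where they were placed, which is given as counts without a test. Interferon and antigen presentation genes were placed with LSK CD150+CD48+ cells in 11 of 18 interferon-γ genes, 13 of 19 class I genes, 7 of 10 class II genes and 14 of 18 type I genes called higher, with 1, 1, 2 and 2 placed with BL/6 CMPs. These shares lie near or above the 58.4% over all genes called higher. Placement did not mean equal levels: for Cd74 the pMT-10 CMPs were at 164 and 242 CPM, a position of 0.76 on a log2 scale that runs from 0 at the BL/6 CMP mean to 1 at the LSK CD150+CD48+ mean. For Ciita the position was 0.828, for Irf1 0.766, and for Gbp3 and Psmb9, where pMT-10 CMPs reached the level of the LSK CD150+CD48+ cells, 1.04 and 1.03.

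Lineage genes called lower were mostly placed with BL/6 CMPs: 12 of 15 erythroid, 7 of 7 neutrophil, 9 of 10 monocyte and dendritic and 4 of 5 lymphoid genes, beside 26.3% of all genes called lower. For Tfrc the position was 0.043 and for Add2 -0.122, close to BL/6 CMPs. Several myeloid genes had positions below 0, since pMT-10 CMPs exceeded BL/6 CMPs: Ctsg -0.535, Hk3 -1.07, Gfi1 -0.718 and Ccl9 -0.188. Clec12a, at 3.86 and 5.21 CPM in pMT-10 CMPs, was an exception with a position of 0.611. Megakaryocyte genes were divided, with 7 of 13 placed with LSK CD150+CD48+ cells (Itga2b at 0.941) and 5 with BL/6 CMPs (Cd9 at 0.39).

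**Figure D4:**
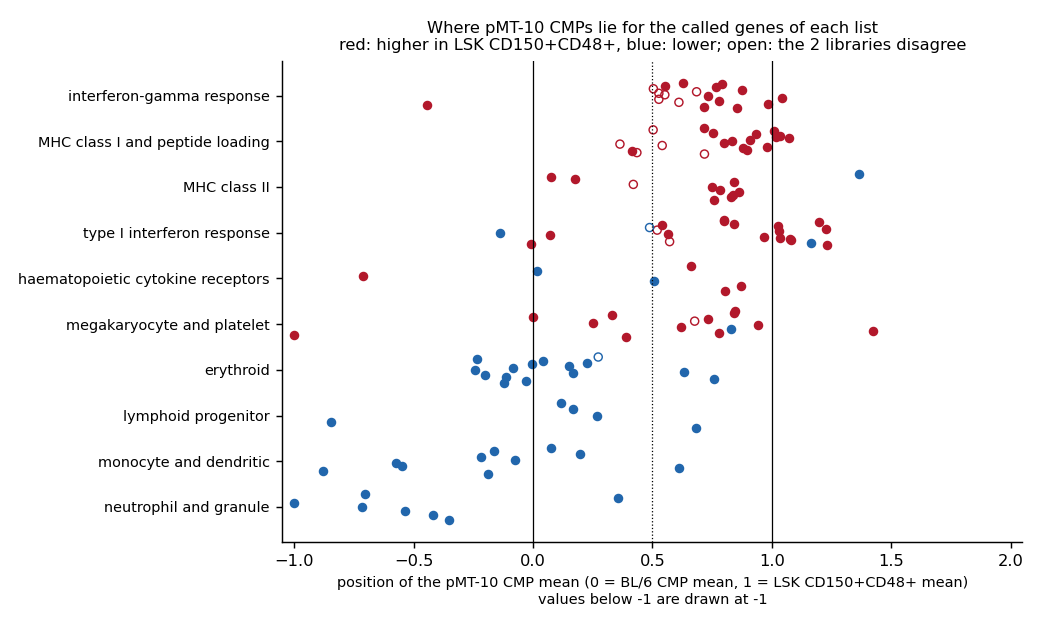
Position of the pMT-10 CMP mean for the called genes of 10 lists, on a log2 scale where 0 is the BL/6 CMP mean and 1 the LSK CD150+CD48+ mean. Red points are genes higher and blue points genes lower in LSK CD150+CD48+ cells, and open points are genes whose 2 pMT-10 CMP libraries fell on different sides. Interferon and antigen presentation genes lie mostly right of 0.5, and erythroid, lymphoid, monocyte and neutrophil genes mostly left of it.

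The HSC library shares the strain with LSK CD150+CD48+ cells and the chip with BL/6 CMPs, and has no replicate. It was nearer to LSK CD150+CD48+ cells for 347 of the 541 genes (64.1%) called higher and placed with them, and for 258 of the 542 (47.6%) called lower and placed with them. For genes placed with BL/6 CMPs these shares were 42.1% of those called higher and 62.5% of those called lower. For genes not placed they were 63.3% and 53.4%. The HSC library thus did not follow the placement in the genes called lower. Cd74, H2-Eb1 and Irf1 were at 2101, 797 and 625 CPM in the HSC library, and the part of the chip in these levels was not tested. Csf2rb2 and Zbp1 were at 92.1 and 52.7 CPM there.

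Sex-linked genes separated the groups. The Y-linked Ddx3y, Eif2s3y and Kdm5d had 0 counts in both BL/6 CMP libraries and were at least 226-fold, 121-fold and 40.8-fold higher in LSK CD150+CD48+ cells, against a floor of 3 counts per library. Xist, the RNA of the inactive X, was at 284 and 0.144 CPM in the 2 LSK CD150+CD48+ libraries, 859 and 706 in BL/6 CMPs and 1313 and 943 in pMT-10 CMPs. The LSK CD150+CD48+ libraries thus differed from each other, since replicate 1 held both Xist and Y-linked RNA and replicate 2 almost only the latter, and Uty had 1 count in all in BL/6 CMPs. Without X- and Y-linked genes, 11055 genes were tested and the counts were 913 higher and 931 lower. Sex is thus a further difference between the groups that cannot be told apart from strain, population and chip. The part of sex in the other genes was not tested.

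Mmrn1, the platelet protein multimerin 1 (chromosome 6, 60924976 to 60989378), was read only in pMT-10 libraries. It had 87 and 73 counts in the LSK CD150+CD48+ libraries, 25 and 22 in pMT-10 CMPs, 456 in the HSC library and 0 in both BL/6 CMP libraries. It was at least 29.7-fold higher in LSK CD150+CD48+ cells, against the same floor. The labels do not name the C57BL/6 substrain, and the presence of the gene in the DNA of these mice was not tested.

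Markers of other cells that the sorts could hold were looked at as sums over each list. The T and NK cell list summed to 367 and 282 CPM in LSK CD150+CD48+ cells against 81.5 and 86.5 in BL/6 CMPs, but 92.7% of the sum was Nkg7, and Cd3d, Cd3e, Gzma, Klrd1 and Ncr1 were at 0 in all 4 libraries. B and plasma cell markers summed to 18.9 and 19.6 against 21 and 21.7 CPM, macrophage markers to 7.71 and 8.99 against 8.21 and 8.88, and stromal and endothelial markers to 160.1 and 137 against 190.1 and 177. Mature neutrophil markers summed to 5.02 and 16.1 against 17.2 and 4.6 CPM. Among mature red cell markers, Bpgm was at 17.2 and 21.4 against 20.4 and 17.5 CPM, Slc4a1 at 0 and 1.44 against 5.54 and 5.49 and Alas2 at 0.351 and 0.432 against 1.2 and 1.21, and none of these was called. The part of such cells in the differences above was not tested.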

How the data were processed

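RNA of sorted cells was extracted with the RNeasy Micro kit and read with the Ion AmpliSeq mouse transcriptome panel, which amplifies 1 short stretch per gene, per the labels' protocols. The deposited tables hold raw read counts per amplicon for 23930 genes, with mm10 as the build per the submitters' processing notes. The sources used here name no aligner or counter. One amplicon stands for each gene, so a variant under a primer, a near copy of the gene or an untargeted isoform can change its count.

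The 7 libraries were fitted together in R 4.3.3 with edgeR 4.0.16 (TMM factors, filterByExpr with a minimum count of 10, robust quasi-likelihood fit with 3 residual degrees of freedom). Benjamini-Hochberg adjustment ran over all 11429 tested genes, and every adjusted p comes from this test or, where a left-out library or another setting is named, from the same test on the genes that passed the filter there. DESeq2 1.42.0, limma 3.58.1 voom, other scaling, other filters, leaving out each library and a replicate block were alternatives. The fitting steps were tested on simulated data. Means on a log2 scale for placement used a prior count of 2.

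The comparison, the members and the gene lists were chosen with earlier results of these data known. The rule for named genes took the 12 largest increases and decreases, up to 4 genes with the smallest p in each of the 18 lists, 3 per placed side and a set chosen from the pathway. Further list members were named after their values were seen. Total counts per library were 7372430 to 13854314, so 3 counts equal 0.216 to 0.397 CPM, and intervals for counting error are not given because PCR reads are not independent molecules. Gene positions are from GENCODE M21 (GRCm38), and promoter sequences from RefSeq (GRCm38.p6). Some genes are not reported here.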

Additional observations from a re-analysis of the deposited data

How the results depend on the processing

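Under the 18 alternatives no called gene changed direction, and the largest changes in count came from leaving out a library. With each library left out in turn, the called genes numbered 140 to 4575, those called higher 91 to 2229, those called lower 49 to 2346, and those of at least 2-fold 140 to 1574. With only the 4 compared libraries, 4553 genes were called, 2233 higher and 2320 lower, and without both pMT-10 CMP libraries (an alternative chosen after seeing the data) 4588, 2245 higher and 2343 lower. When a fold of 1.5 had to be exceeded (glmTreat) 523 genes were called, 262 higher and 261 lower, all 523 of at least 2-fold. Genes with low counts entered without the filter, which gave 2682 calls among 17973 tested genes, and DESeq2 gave 2222. The share of calls in the higher direction stayed between 47.4% and 52.3% except without LSK CD150+CD48+ replicates 1 and 2, where it was 65% and 57%.

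In the same leave-outs, the members called by edgeR ranged from 0 to 14 in the stem list, 0 to 15 in the cell cycle list, 2 to 17 in the megakaryocyte list, 4 to 20 in the erythroid list, 3 to 9 in the neutrophil list, 2 to 12 in the monocyte list, 2 to 7 in the lymphoid list, 10 to 20 in the class I list, 6 to 21 in the type I list, 11 to 18 in the interferon-γ list and 7 to 11 in the class II list, each lowest without an LSK CD150+CD48+ or BL/6 CMP library and each highest without a pMT-10 CMP library or at its full count. A fold above 1.5 left 1 stem, 2 cell cycle, 7 megakaryocyte, 9 erythroid, 3 lymphoid and 10 type I members. Only the 4 libraries, like leaving out both pMT-10 CMP libraries, gave 14 stem and 15 cell cycle members, and no filter gave 9 stem members. The class II count stayed within 1.5 times its value throughout. The cause of these changes was not tested.

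Titles number the replicates, but same-numbered samples did not deviate together (Pearson r across genes -0.0764 between LSK CD150+CD48+ cells and BL/6 CMPs, -0.0192 and -0.0195 for the other pairs of groups). A replicate block gave 1664 calls, of which 1613 were among the 1899 and in the same direction. Of 103 named genes with values, 52 kept their direction and side of the threshold under all alternatives. Depth limits genes under about 0.4 CPM, and the 2 libraries per group limit the rest.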

Other observations

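Called genes outside the lists were also looked at, and those named here were picked after their values were seen. Il18bp, the secreted inhibitor of IL-18, was at 54.8 and 38.2 CPM in LSK CD150+CD48+ cells against 3.6 and 2.5 in BL/6 CMPs and 16.4 and 23.3 in pMT-10 CMPs (3.93 ± 0.33, edgeR adjusted p = 0.000252). Il12rb1, a chain of the IL-12 receptor, rose by 3.19 ± 0.31, Il15ra, which presents IL-15, by 2.23 ± 0.22, and Nod1, a sensor of bacterial cell wall fragments, by 3.11 ± 0.30. Uba7 and Ube2l6, the enzymes that attach the ubiquitin-like protein ISG15, rose together, Uba7 from 47.2 and 50.7 to 406 and 331 CPM and Ube2l6 from 136 and 125 to 639 and 605. Plac8, a small protein of myeloid and lymphoid cells, was at 1609 and 1759 CPM against 323 and 289 (2.46 ± 0.20, edgeR adjusted p = 0.000179). Vim, the intermediate filament vimentin, and Lat, an adaptor of platelets and T cells, rose by 2.05 ± 0.21 and 2.36 ± 0.21.

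Among the decreases were further genes of red cell metabolism. Pklr, the pyruvate kinase of red cells and liver, was at 121 and 147 CPM against 517 and 567 in BL/6 CMPs and 433 and 457 in pMT-10 CMPs (-2.01 ± 0.18, edgeR adjusted p = 0.00033). Hebp1, a haem-binding protein, and Ctse, the protease cathepsin E, fell by 2.56 ± 0.25 and 2.39 ± 0.24 on the log2 scale, and pMT-10 CMPs were near BL/6 CMPs for both. Picalm, a clathrin adaptor, differed in placement, at 19.2 and 28.1 CPM against 135 and 129, with pMT-10 CMPs at 15.9 and 18. Spire1, an actin nucleator, and Asns, asparagine synthetase, fell by 2.93 ± 0.30 and 2.02 ± 0.24. Tyrobp, the signalling adaptor of myeloid receptors, was at 2.34 and 4.24 CPM against 14 and 16.1, below pMT-10 CMPs at 41.4 and 48.9.

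Ddah1, which breaks down methylated arginines, had 0 counts in all 5 pMT-10 libraries and 21 and 23 in BL/6 CMPs, so it was at least 6.7-fold lower in LSK CD150+CD48+ cells against a floor of 3 counts per library. Gm10325 had the reverse pattern, with 24 and 82 counts in the libraries of LSK CD150+CD48+ cells, 168 and 124 in pMT-10 CMPs and 0 in both BL/6 CMP libraries. Of 370 tested X-linked genes 41 were called lower (11.1%) and 10 higher (2.7%), beside 8.5% and 8.11% over all tested genes. The part of sex and strain in these values was not tested.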
